A study of Mus musculus with 16 samples.

Results

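The Klhl (Kelch-like) family was examined in the gastrocnemius, a muscle of the calf, of 16 mice. The members were the rows of the deposited gene table whose symbol begins with Klhl followed by a digit, and 36 of its 21923 genes met this rule. The NOR mice were injected with PBS in place of tumor cells. The CAC mice carried tumors and received PBS by daily intraperitoneal injection from day 9, and the AM mice carried the same tumors and received amiloride at 2 mg/kg on the same schedule. The KD mice carried tumors grown from cells in which Rab27a and Rab27b were knocked down with lentiviral shRNA, so the knock-down was in the tumor cells and not in the muscle that was sequenced. The NOR and KD mice also received PBS on that schedule. Each group held 4 mice, bought at 6 to 8 weeks of age and sequenced as 1 library each, and all muscles were taken on day 30. In every group replicates 1 and 2 are labelled C57BL/6, the host strain of LLC lung carcinoma cells, and replicates 3 and 4 BALB/c (spelled BABL/c in the labels), the host strain of CT26 colon carcinoma cells. Strain and tumor line therefore cannot be told apart. The labels name male and female mice for the BALB/c model and the study's methods name males, and the sex of each mouse was not used.

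Klhl proteins combine a BTB domain, which binds the scaffold protein Cul3, a BACK domain and a propeller of kelch repeats, which binds the substrate. Each member thereby brings its own set of proteins to the same Cul3 ubiquitin ligase, and some members stabilize a partner instead of marking it for degradation. In skeletal muscle Klhl40 and Klhl41 are bound to sarcomere proteins and are mutated in nemaline myopathy, and Klhl31 acts on the actin cross-linker filamin C.

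The sequence before the transcription start is shown for 6 members, namely the called members Klhl3, Klhl23, Klhl29 and Klhl33 and the members with the highest transcript levels, Klhl41 and Klhl40. The sequences are from RefSeq (GRCm38.p6), read 5′ to 3′ on the strand of the gene, and cover the 250 bases before the start farthest upstream. For Klhl33 the last 24 bases were left out because they lie inside the gene in GENCODE M21. Capitals mark matches to the motifs searched.
Klhl3 (chr13:58113648-58113897, strand -): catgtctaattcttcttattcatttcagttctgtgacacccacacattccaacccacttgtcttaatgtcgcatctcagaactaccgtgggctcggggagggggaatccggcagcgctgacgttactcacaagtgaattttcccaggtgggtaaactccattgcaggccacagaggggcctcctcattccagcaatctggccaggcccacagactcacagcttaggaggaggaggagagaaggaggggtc
Klhl23 (chr2:69821691-69821940, strand +): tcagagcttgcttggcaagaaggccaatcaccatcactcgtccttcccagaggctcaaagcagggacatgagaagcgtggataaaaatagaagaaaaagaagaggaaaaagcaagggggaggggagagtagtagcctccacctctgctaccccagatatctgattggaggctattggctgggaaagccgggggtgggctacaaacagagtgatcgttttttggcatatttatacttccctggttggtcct
Klhl29 (chr12:5375683-5375932, strand -): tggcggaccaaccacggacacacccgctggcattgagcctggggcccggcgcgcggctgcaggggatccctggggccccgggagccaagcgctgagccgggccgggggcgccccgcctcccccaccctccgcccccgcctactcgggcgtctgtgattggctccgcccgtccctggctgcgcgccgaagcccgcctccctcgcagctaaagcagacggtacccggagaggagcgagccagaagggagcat
Klhl33 (chr14:50897508-50897733, strand -): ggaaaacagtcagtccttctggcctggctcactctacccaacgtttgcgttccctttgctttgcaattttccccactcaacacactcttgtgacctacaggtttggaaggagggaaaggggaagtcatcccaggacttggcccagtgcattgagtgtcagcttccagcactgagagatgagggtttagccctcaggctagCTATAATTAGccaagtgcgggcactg
Klhl40 (chr9:121777357-121777606, strand +): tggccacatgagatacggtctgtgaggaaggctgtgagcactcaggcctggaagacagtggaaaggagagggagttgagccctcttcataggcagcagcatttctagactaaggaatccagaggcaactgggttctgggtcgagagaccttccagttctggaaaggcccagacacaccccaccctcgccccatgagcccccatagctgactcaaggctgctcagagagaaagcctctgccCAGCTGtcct
Klhl41 (chr2:69669870-69670119, strand +): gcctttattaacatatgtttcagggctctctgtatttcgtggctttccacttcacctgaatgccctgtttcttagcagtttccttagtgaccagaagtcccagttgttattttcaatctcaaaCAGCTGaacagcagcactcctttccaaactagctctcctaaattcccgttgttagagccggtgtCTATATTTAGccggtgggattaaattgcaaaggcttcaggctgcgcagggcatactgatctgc

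Windows of 250 bases were held for 30 of the 36 members (40 windows), and Klhl38, the member with the largest difference below, had none. Motifs were searched on both strands. The E-box of myogenic factors, CAGCTG, was in 10 of the 40 windows and in 13.0% of the 32841 windows of all genes. These windows belonged to 9 of the 30 members, and a pair of overlapping Klhl13 windows held the same match. The E-box began 10 bases before the start of Klhl40 and 127 bases before that of Klhl41. The MEF2 consensus was in 2 of the 40 windows and in 2.92% of all windows. These 2 matches were those shown above, 50 bases before the RefSeq start of Klhl33 and 63 bases before that of Klhl41. For Klhl33 the distance counts the 24 bases left out above. The FOXO letters TGTTTAC were in 0 member windows and 3.17% of all windows, and the C/EBP letters TTGCGCAA were in 0 and 0.164%. The STAT letters TTCNNNGAA were in 3 member windows and 7.02% of all windows. The glucocorticoid receptor letters AGAACA were in 8 member windows and 16.1% of all windows. These windows belonged to 7 members, and a pair of overlapping Klhl26 windows held the same match. The windows shown for Klhl3, Klhl23 and Klhl29 held none of the 6 motifs. A match describes letters only.

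Library totals ran from 35913190 to 61032708 counts, and Klhl members took 0.169% to 0.249% of them. The fast fibre markers, 10 of 10, were above 0 in every library, with summed levels of 87426 to 243790 CPM (counts per gene, scaled by library size). The 5 libraries NOR 1, CAC 1, CAC 4, KD 2 and KD 3 stood apart, with a summed level of 0.475 to 3.17 CPM for 6 B cell markers, against 33.6 to 434 CPM in the other 11. KD 2 and KD 3 were also the lowest KD libraries for the macrophage and fibroblast markers. For the slow fibre markers (7 of 7 above 0 in every library) they were the highest of all 16 libraries. Their slow fibre sums were 7090 and 5125 CPM, against 1593.5 CPM in KD 1 and 2349 CPM in KD 4. Other marker lists moved with the condition. Fibroblast markers (5 of 5 above 0 in every library) summed to 2262 to 2979 CPM in the NOR mice and to 824 to 1324 CPM in the CAC mice. Neutrophil markers (3 of 5 above 0 in every library) summed to 3.34 to 22.9 CPM in NOR and to 82.0 to 184 CPM in CAC. Erythroid markers (5 of 6 above 0 in every library) summed to 1049 to 1359 CPM in NOR and to 3628 to 8616 CPM in CAC. Satellite cell markers (5 of 5) summed to 31.5 to 59.0 CPM in NOR, to 59.7 to 85.5 CPM in CAC and to 40.7 to 53.7 CPM in AM. The AM mice also stood above the CAC mice for the fibroblast markers (1812 to 2562 CPM) and for the peripheral nerve markers (5 of 5, 388 to 721 against 195 to 370 CPM). Their part in the results below was not tested, and in muscle taken whole, fewer cells of a type and less RNA per cell cannot be told apart.

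Transcript levels within the family were compared as FPKM, which the authors scaled by gene length and library size. The family was headed by Klhl41, a regulator of myofibril assembly that binds Nrap and nebulin, with a mean of 175 FPKM over the 16 libraries, or 25.1% of the summed FPKM of the family. Klhl40, which stabilizes leiomodin 3 and nebulin, followed with 106 FPKM (15.2%), and Klhl21, which acts with Cul3 in cell division, with 71.0 FPKM (10.2%). Means above 30 FPKM were held by 9 members in all, and these made up 83.1% of the family's sum. The other 6 were Klhl24 (50.8 FPKM), which controls keratin turnover in skin, Klhl31 (39.0), Klhl33 (38.4), Klhl30 (36.4), Klhl22 (33.1), an adaptor that acts on Depdc5, and Klhl38 (30.6). The FPKM of Klhl22 rests on a length of 1167 bases, shorter than its coding sequence of 1902 bases. Its place in this order may therefore be too high. The level of Klhl38 differed between groups, with a mean of 61.3 FPKM for CAC against 13.4 for NOR, 22.2 for AM and 25.4 for KD. Between 10 and 30 FPKM were 3 members, Klhl7, Klhl9 and Klhl8. Another 18 members had means between 1 and 10 FPKM. The remaining 6 were Klhl3 (0.887 FPKM), Klhl35 (0.203), Klhl10 (0.189), Klhl14 (0.133), Klhl32 and Klhl1. Klhl1, a neuronal member, had 0 counts in every library, where a count of 0 allows a level of 0.0492 to 0.0835 CPM depending on the library (3 counts, counting error only). Klhl32 had 0 to 11 counts per library, Klhl35 0 to 28, and Klhl10, known from spermatogenesis, 2 to 41. The plot of FPKM by member shows this order.

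**Figure D1:**
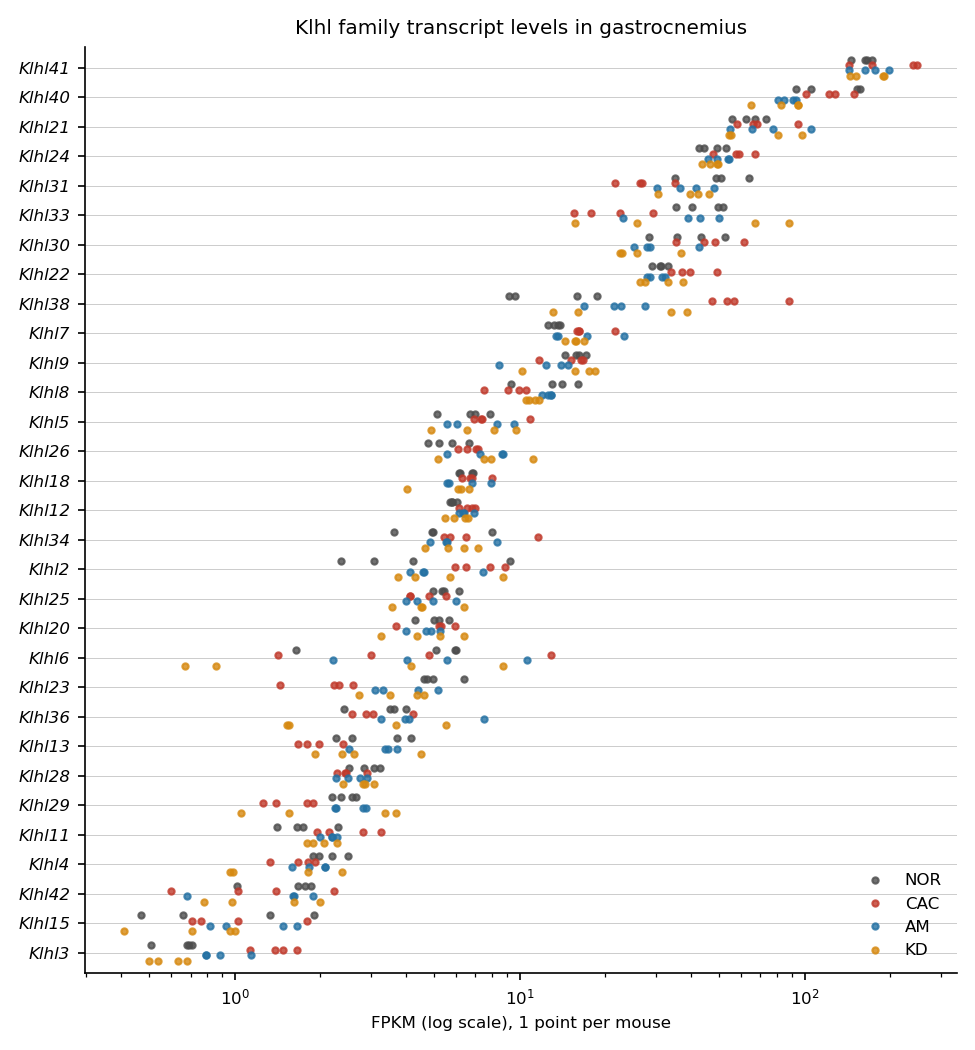
FPKM on a log axis (horizontal) for the 31 Klhl members with a mean of at least 0.5 FPKM (vertical), with 1 point per mouse and colors for the NOR, CAC, AM and KD groups. Klhl41 (mean 175 FPKM) and Klhl40 (106 FPKM) head the order, and the CAC points of Klhl38 lie to the right of its NOR points.

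The CAC vs. NOR comparison asks how the muscle of tumor-bearing mice differs from that of tumor-free mice. Of 34 members tested, 2 rose (Klhl38 and Klhl3) and 3 fell (Klhl23, Klhl33 and Klhl29), where a call needs an FDR within 0.05 in edgeR's quasi-likelihood test (Benjamini-Hochberg over all genes tested) together with a change of 1.5-fold or more. Of all 14666 genes tested, 4.32% rose and 5.13% fell. The groups did not overlap for 8 members, 2 higher and 6 lower in CAC, against 22.8% of all genes. An unadjusted p below 0.05 was reached by 11 members, against 29.1% of all genes. DESeq2 called the 5 members named above and, lower in CAC, Klhl13 and Klhl31 (5.75% of all genes up and 7.41% down). The median log2 fold change of the members was -0.07 and that of all genes 0.01, and the medians of its size were 0.28 and 0.27. The counts of the family were thus near those of the table as a whole, and the members moved in both directions.

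Klhl38 (ENSMUSG00000022357), a muscle-enriched member, had the largest rise. Its expression, in TMM-normalized CPM here and in all that follows, was 49.3, 20.8, 20.5 and 34.5 in NOR replicates 1 to 4 and 202, 106, 98.3 and 117 in CAC replicates 1 to 4. Every CAC mouse was thus higher than every NOR mouse, and CAC replicate 1 was the highest. The log2 fold change was 2.07 (SE 0.351, edgeR FDR 0.00939), or 4.19-fold. The two-sided exact permutation test gave p = 0.0286, the smallest that 4 mice against 4 allow. In AM the levels were 55.6, 50.3, 47.8 and 38.3 CPM, lower than in every CAC mouse, with a log2 fold change of -1.44 (SE 0.239, edgeR FDR 0.0163) in AM vs. CAC. In KD they were 24.9, 101, 86.8 and 34.3 CPM, so that replicate 2 reached the range of CAC and replicates 1 and 4 lay within that of NOR. The KD vs. CAC log2 fold change was -1.10 (SE 0.459, edgeR FDR 0.425). KD replicates 2 and 3, NOR replicate 1 and CAC replicates 1 and 4, the highest mice of their groups, were the 5 libraries low in B cell markers. Without these 5 libraries CAC vs. NOR gave a log2 fold change of 2.01 (edgeR FDR 0.0304), and the values against CAC were -1.09 in AM (edgeR FDR 0.0597, so the call was lost) and -1.78 in KD (edgeR FDR 0.146). Of all genes, 0.0726% fell in AM vs. CAC without these libraries. Klhl38 lies on chromosome 15 from 58314573 to 58324169 on the minus strand (GRCm38). An antisense gene, Gm15943, overlaps it there and holds 63.8% of the 31-base words of its transcripts. Gm15943 had 0 rows in the deposited table. Whether the counting used strand is not given in the sources used here, so reads of this pair may not be told apart.

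Klhl3 (ENSMUSG00000014164), the adaptor that marks WNK kinases for degradation in the kidney, was a member of low level. It stood at 5.91, 3.49, 4.78 and 4.71 CPM in NOR and at 10.1, 10.4, 9.61 and 7.42 CPM in CAC, without overlap. Its log2 fold change was 0.99 (SE 0.193, edgeR FDR 0.0145). Levels of 5.68, 8.02, 5.59 and 5.69 CPM in AM put replicates 1, 3 and 4 within the range of NOR and replicate 2 within that of CAC (log2 fold change -0.58 in AM vs. CAC, edgeR FDR 0.105). In KD all 4 mice, at 4.12, 5.22, 4.00 and 3.66 CPM, lay below all CAC mice. The KD vs. CAC log2 fold change was -1.14 (SE 0.193), with an edgeR FDR of 0.181 against 2.04e-05 in DESeq2 and 0.0259 in the fit of all 16 libraries. Klhl2, a close relative that also acts on WNK kinases, had 20.4 ± 12.4 CPM in the NOR mice against 29.3 ± 4.20 CPM in the CAC mice (± SD of 4 mice) and did not pass (log2 fold change 0.52, edgeR FDR 0.376). NOR replicate 4 stood at 38.6 CPM and the other NOR mice at 17.6 CPM or less, and without it Klhl2 was called (log2 fold change 1.04, edgeR FDR 0.0163).

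Klhl23 (ENSMUSG00000042155) had the steepest fall of the called members, from 35.1, 22.4, 22.1 and 20.8 CPM in NOR to 12.5, 10.3, 5.52 and 10.1 CPM in CAC. The groups did not overlap, and NOR replicate 1 was the highest and CAC replicate 3 the lowest. Its log2 fold change was -1.39 (SE 0.270, edgeR FDR 0.0146). The AM mice had 13.9, 14.3, 20.4 and 24.7 CPM and the KD mice 17.4, 14.9, 18.6 and 20.7 CPM, so every mouse of both groups stood above every CAC mouse. The log2 fold changes against CAC were 0.94 in AM (SE 0.280, edgeR FDR 0.0939) and 0.89 in KD (SE 0.252, edgeR FDR 0.280), and neither passed. DESeq2 gave 0.0182 and 0.0366 for these 2 values. The gene begins 137714 bases from the end of Klhl41 on chromosome 2.

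Klhl33 (ENSMUSG00000090799), a member of the more abundant part of the family whose substrates are not well known, had 136, 98.6, 143 and 144 CPM in NOR and 86.7, 64.3, 36.8 and 47.7 CPM in CAC. All CAC values lay below all NOR values, and the log2 fold change was -1.15 (SE 0.259, edgeR FDR 0.0237). The call was lost without NOR replicates 1, 3 or 4 or CAC replicates 2 or 4, with an FDR of 0.051 to 0.0679, and in the fit of all 16 libraries (0.141). In AM the levels were 59.8, 142, 112 and 126 CPM, and all but replicate 1 exceeded the CAC mice (log2 fold change 0.91, edgeR FDR 0.146). In KD they were 38.3 and 86.9 CPM in the C57BL/6 mice and 290 and 184 CPM in the BALB/c mice, a mean of 149.6 ± 111 CPM (± SD of 4 mice). The KD vs. CAC log2 fold change was -0.26 in the C57BL/6 mice and 2.47 in the BALB/c mice. The test of this difference gave 2.74 (SE 0.605, edgeR FDR 0.854), and DESeq2 called it with an FDR of 0.00577.

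Klhl29 (ENSMUSG00000020627) stood at 12.7, 11.3, 13.1 and 12.3 CPM in NOR and at 6.37, 8.82, 5.67 and 8.63 CPM in CAC. These ranges did not overlap, and the log2 fold change was -0.75 (SE 0.168, edgeR FDR 0.0235). The call was lost without any 1 of the 4 NOR mice or CAC replicate 1, with an FDR of 0.0508 to 0.071, and in the fit of all 16 libraries (0.0861). It was also lost with the replicate number as a block. The AM mice, at 9.99, 11.0, 14.2 and 14.1 CPM, all exceeded the CAC mice (log2 fold change 0.75, edgeR FDR 0.0671). The KD mice split into 15.4 and 15.9 CPM in replicates 1 and 4 and 6.07 and 8.70 CPM in replicates 2 and 3. KD replicates 2 and 3 were low in B cell, macrophage and fibroblast markers and high in slow fibre markers. Without the 5 libraries low in B cell markers, the CAC vs. NOR log2 fold changes were -1.46 for Klhl23 (FDR 0.0539), -1.34 for Klhl33 (0.0715) and -0.76 for Klhl29 (0.123). Only Klhl38 (2.01, FDR 0.0304) and Klhl3 (1.21, FDR 0.0466) were called there, with 2 CAC mice against 3 NOR mice.

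**Figure D2:**
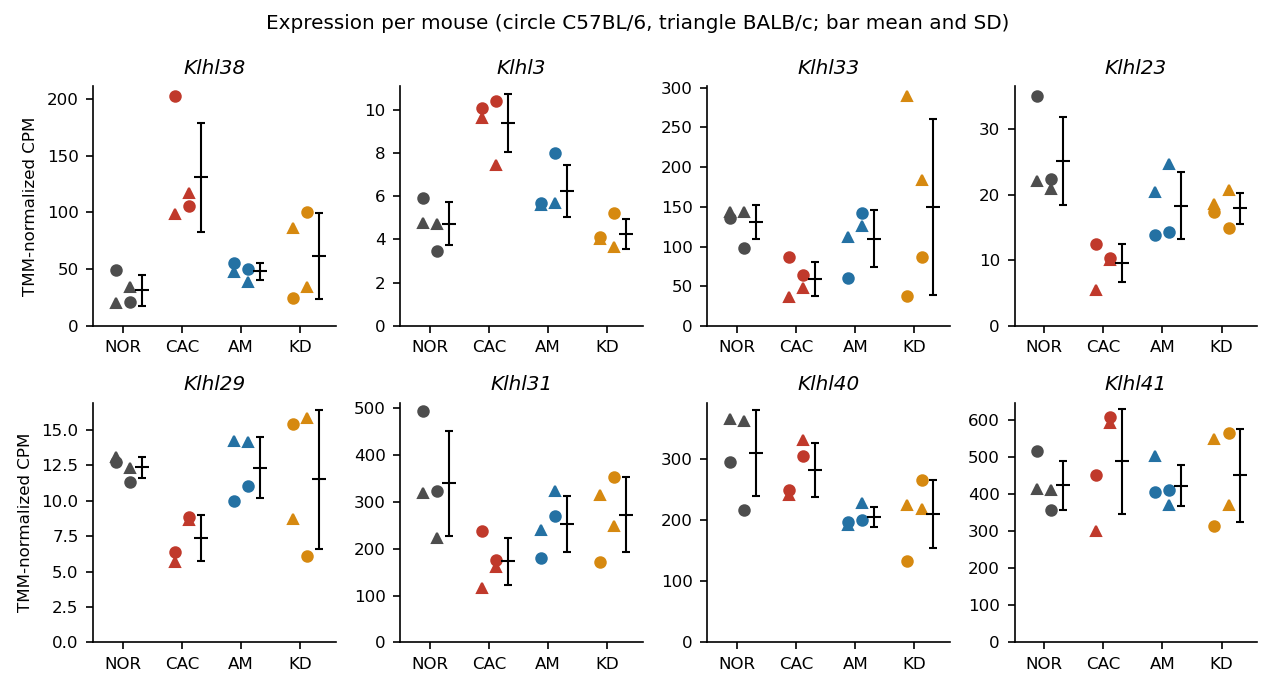
TMM-normalized CPM (vertical, from 0) of 8 members in the NOR, CAC, AM and KD groups, with 1 symbol per mouse (circles C57BL/6, triangles BALB/c) and bars for the mean and SD of 4 mice. The CAC mice stand above the NOR mice for Klhl38 and Klhl3 and below them for Klhl33, Klhl23 and Klhl29. The NOR and CAC groups overlap for Klhl31, Klhl40 and Klhl41.

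Of Klhl31, Klhl40 and Klhl41, members that act on sarcomere proteins, 0 were called by edgeR in the 3 comparisons. Of 22 settings, which include the reported fit, 10 called Klhl31 lower in CAC vs. NOR. Klhl31 (ENSMUSG00000044938), whose known substrate is filamin C, had 493, 323, 319 and 222 CPM in NOR and 238, 175, 116 and 162 CPM in CAC. NOR replicate 4 and CAC replicate 1 overlapped. The log2 fold change was -0.97 (SE 0.279), with an FDR of 0.0518 in edgeR's test, just above the limit, and 0.00437 in DESeq2. It passed in limma-voom (0.0495) and, in edgeR, with library totals only (0.0279), the filter of 1 CPM in 4 libraries (0.0467), the strain (0.0214), the replicate number (0.0336) or the B cell marker level (0.0107) as a covariate, in the fit of all 16 libraries (0.0426), and without NOR replicate 4 (0.0383) or CAC replicate 1 (0.0498). In AM it stood at 179, 270.1, 239 and 323 CPM, and in KD at 171, 354, 315 and 248.9 CPM, with edgeR FDRs of 0.229 and 0.438 against CAC.

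Klhl40 (ENSMUSG00000074001) had 295, 216, 365 and 363 CPM in NOR and 249.9, 305, 240.4 and 332 CPM in CAC, 2 ranges that overlapped widely (log2 fold change -0.14, SE 0.191, edgeR FDR 0.697). Its AM values of 196, 201, 192 and 229 CPM lay below all CAC values and did not pass the test (log2 fold change -0.46, SE 0.133, edgeR FDR 0.0890). DESeq2 gave an FDR of 0.0194 with a log2 fold change of -0.44, under the fold limit. In KD it stood at 133, 265, 225 and 218 CPM.

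Klhl41 (ENSMUSG00000075307), the most abundant member, had 516, 359, 414 and 410.4 CPM in NOR, 453, 608, 302 and 592 CPM in CAC, 407, 411, 504 and 372 CPM in AM, and 315, 566, 551 and 372 CPM in KD. All 4 ranges overlapped, and its log2 fold changes were 0.20 in CAC vs. NOR (SE 0.228, edgeR FDR 0.624) and, against CAC, -0.20 in AM and -0.12 in KD. Klhl21 (ENSMUSG00000073700) likewise had overlapping ranges, with 295, 217, 295 and 261 CPM in NOR and 282, 231, 218 and 355 CPM in CAC. AM replicate 3 (422 CPM) and KD replicate 3 (450.5 CPM) were its highest values. The other AM mice had 281, 261 and 225 CPM and the other KD mice 186, 259.8 and 312 CPM. Klhl21 shares 20.7% of its words with other genes, most of them with the overlapping Gm9768, and Klhl40 20.6% with Gm47108, both on the opposite strand. Gm9768 and Gm47108 had 0 rows in the deposited table.

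Further members with known substrates act in signalling, cell division and vesicle traffic. For Klhl24, means (± SD of 4 mice) for NOR, CAC, AM and KD were 160.5 ± 30.6, 179 ± 24.9, 163 ± 19.3 and 159.8 ± 23.1 CPM. Those of Klhl22 were 37.7 ± 4.12, 44.1 ± 4.93, 34.6 ± 1.83 and 37.8 ± 7.56 CPM in the same order, and every AM mouse was below every CAC mouse without passing the test (log2 fold change -0.35, edgeR FDR 0.0897). Klhl9 (68.4, 59.5, 51.5 and 68.0 CPM), which with Klhl13 directs Aurora B in mitosis, did not pass in CAC vs. NOR. Klhl13 means were 10.6 ± 3.88 CPM (NOR), 5.94 ± 1.18 (CAC), 10.2 ± 1.75 (AM) and 9.07 ± 2.23 (KD), with log2 fold changes of -0.84 in CAC vs. NOR (edgeR FDR 0.0761) and 0.79 in AM vs. CAC (edgeR FDR 0.0586). All AM and all KD mice were above all CAC mice for Klhl13. DESeq2 called it in both, and edgeR in CAC vs. NOR with all 16 libraries (FDR 0.0472) or the B cell marker level as a covariate (FDR 0.0147).

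Klhl12, which directs Sec31 in the making of collagen carriers, had means of 20.0 to 21.1 CPM in the 4 groups, and Klhl20, an adaptor for Ulk1 and Pml, means of 18.9 to 21.1 CPM. Klhl18 had group means of 21.1 to 24.0 CPM. Klhl25, which acts on the translation inhibitor 4E-BP1, had 12.3 ± 1.32 CPM in NOR and 9.54 ± 0.888 in CAC, without overlap (log2 fold change -0.36, edgeR FDR 0.0921). Klhl8 went from 39.6 ± 11.7 to 25.8 ± 5.93 CPM (log2 fold change -0.62, edgeR FDR 0.129, and 0.0487 with the strain or 0.0395 with the B cell marker level as a covariate), and all AM mice exceeded all CAC mice. Klhl42, an adaptor for the microtubule-severing protein katanin, had 10.0 ± 1.69 and 7.69 ± 3.44 CPM, and Klhl15, which acts on a subunit of protein phosphatase 2A, 2.81 ± 1.61 and 2.55 ± 1.14 CPM. Klhl7, mutated in retinitis pigmentosa, had 40.3 ± 5.08 and 48.4 ± 8.49 CPM.

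Several further members have no well known substrate. For Klhl30 the means were 130.4 ± 45.8 CPM (NOR), 138 ± 19.9 (CAC), 95.3 ± 26.8 (AM) and 88.0 ± 31.7 (KD). Its log2 fold changes against CAC, -0.53 in AM and -0.64 in KD, had edgeR FDRs of 0.176 and 0.379. Klhl4 (7.41 ± 0.876 and 5.34 ± 0.622 CPM in NOR and CAC) and Klhl28 (12.8 ± 0.750 and 10.2 ± 0.729 CPM) were lower in every CAC mouse than in every NOR mouse, with edgeR FDRs of 0.0717 and 0.0728. Klhl36 means were 7.70 ± 1.83 CPM (NOR), 6.53 ± 0.798 (CAC), 9.99 ± 3.39 (AM) and 6.49 ± 3.16 (KD). Between NOR and CAC, Klhl5 (23.1 and 25.8 CPM), Klhl11 (4.37 and 5.71 CPM), Klhl26 (16.5 and 18.1 CPM) and Klhl34 (11.0 and 13.5 CPM) overlapped, and none passed. In CAC vs. NOR 23 of the 34 members tested had a log2 fold change below 0.5 in size.

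In AM vs. CAC, which asks what amiloride changed in tumor-bearing mice, 0 members rose and 1, Klhl38, fell among 33 tested. Of the 14674 genes tested, 1.63% rose and 2.03% fell. The groups did not overlap for 7 members, 4 higher in AM (Klhl8, Klhl13, Klhl23 and Klhl29) and 3 lower (Klhl22, Klhl38 and Klhl40), against 15.7% of all genes. An unadjusted p below 0.05 was reached by 12 members, against 21.7% of all genes, and DESeq2 called 5 members (Klhl13, Klhl23, Klhl29 and Klhl33 higher, Klhl38 lower), where it called 4.39% of all genes higher and 3.28% lower. The fall of Klhl38 lost its call without AM replicate 2 (FDR 0.0515), AM replicate 3 (0.0524) or AM replicate 4 (0.0551), with the replicate number as a block (0.0868) and in the fit of all 16 libraries (0.0785). Of all genes, 1.12%, 1.12% and 1.13% fell without AM replicates 2, 3 and 4 in turn. With the replicate block 0% fell, and in the fit of all 16 libraries 0.657%. The comparisons of AM and KD with CAC share the CAC libraries with CAC vs. NOR, so opposite signs for a member in 2 of them are not separate observations.

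In KD vs. CAC 0 of 34 members were called in either direction by edgeR, where 0% of the 14593 genes tested rose and 0.00685% fell. DESeq2 called 2 members, Klhl23 higher and Klhl3 lower, against 1.70% and 0.737% of all genes. An unadjusted p below 0.05 was reached by 7 members (Klhl3, Klhl13, Klhl23, Klhl30, Klhl31, Klhl33 and Klhl38), against 11.1% of all genes. The groups did not overlap for 3 members, Klhl3, Klhl13 and Klhl23, against 7.00% of all genes. Against NOR, and between AM and KD, 0 of 34 members were called by edgeR or DESeq2, and 0% of all genes by edgeR. DESeq2 called 0.340% of all genes up and 0.136% down in AM vs. NOR, 0.184% and 0.0272% in KD vs. NOR, and 0% and 0.00681% in AM vs. KD. Members with an unadjusted p below 0.05 numbered 2 in AM vs. NOR (Klhl40, log2 fold change -0.59, and Klhl38, 0.64, against 9.19% of all genes), 2 in KD vs. NOR (Klhl26, 0.47, and Klhl23, -0.47, against 3.54%) and 1 in AM vs. KD (Klhl3, 0.56, against 1.11%).

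**Figure D3:**
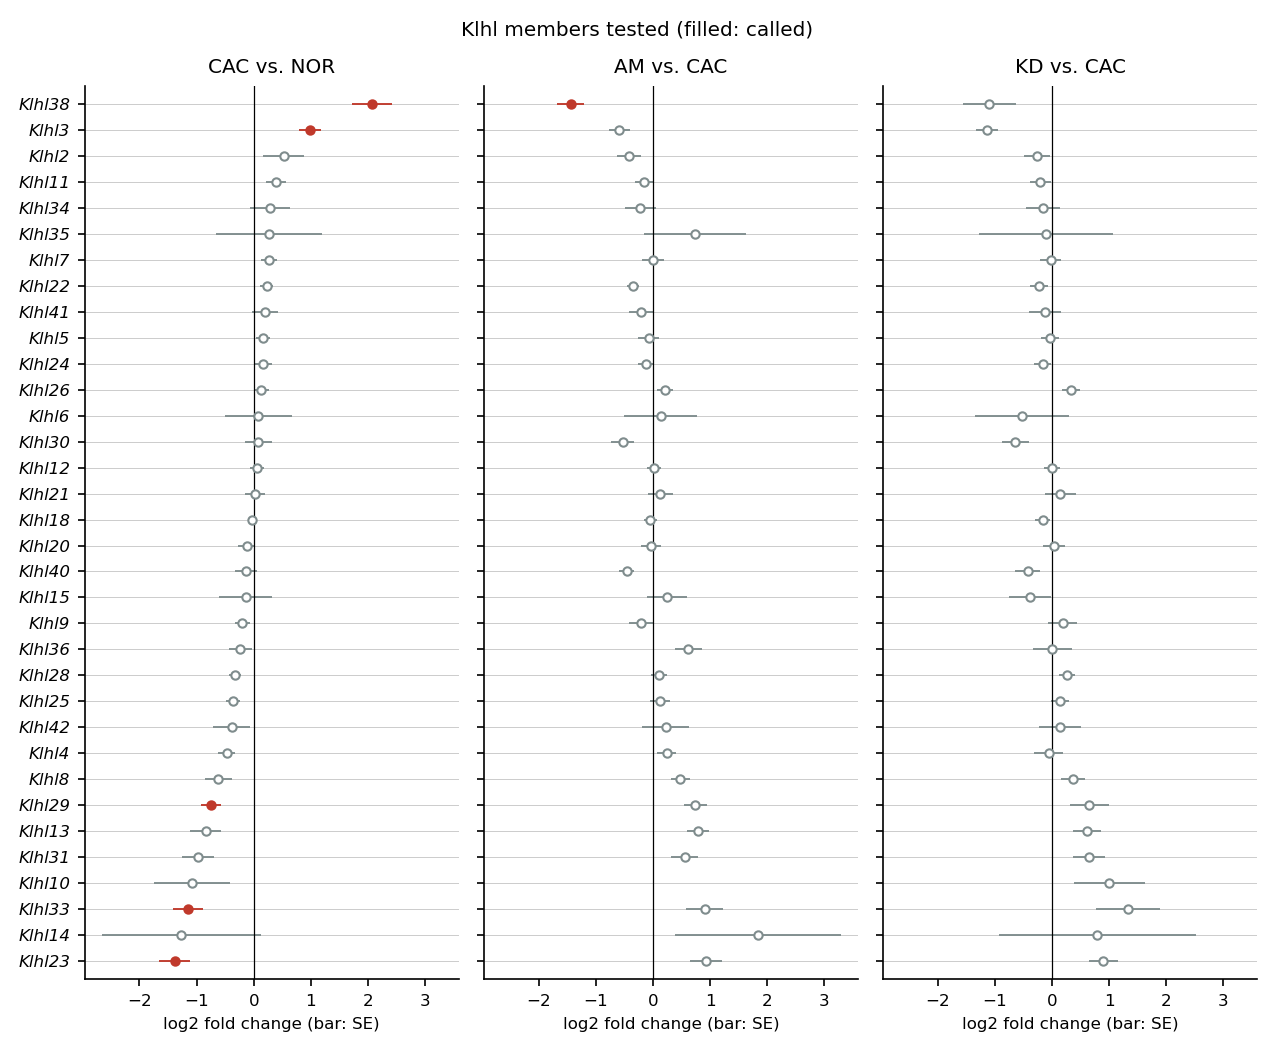
Log2 fold change with its SE (horizontal) of each Klhl member tested (vertical, ordered by CAC vs. NOR) in 1 panel per comparison, with filled red points for members called by edgeR. In CAC vs. NOR 5 members are filled, in AM vs. CAC Klhl38 alone, and in KD vs. CAC 0, and the AM and KD panels share the CAC mice with the first.

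The strain by condition interaction passed in edgeR's test for 0 members in all 3 comparisons, and for 0% of all genes. By DESeq2 it passed for Klhl33 in KD vs. CAC alone, with 0.706% of all genes there, 0.852% in CAC vs. NOR and 3.31% in AM vs. CAC. An unadjusted interaction p below 0.05 was found for 1 member in CAC vs. NOR and, against CAC, for 3 in AM and 1 in KD, against 4.89%, 12.4% and 5.65% of all genes in the same order. In CAC vs. NOR 24 of 33 members had the same sign in both strains, against 72.2% of all genes. In AM vs. CAC it was 22 of 33 (56.2% of all genes) and in KD vs. CAC 17 of 33 (52.2%). For the 5 members called in CAC vs. NOR the groups did not overlap, which fixes the sign within each strain. Their log2 fold changes in C57BL/6 and BALB/c mice were 2.19 and 1.97 for Klhl38, 1.18 and 0.84 for Klhl3, -1.28 and -1.47 for Klhl23, -0.59 and -1.77 for Klhl33, and -0.62 and -0.84 for Klhl29. Each of these values rests on 2 mice against 2. The fall of Klhl38 in AM was of -1.54 and -1.33.

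A pair of members tended to be low in the 5 libraries low in B cell markers, a split chosen after the data were seen. The source of their RNA was not tested. Klhl6 is known from germinal center B cells and Klhl14 from B cell differentiation. Klhl6 stood at 1.85 to 6.73 CPM (median 3.54) in the 5 libraries low in B cell markers and at 5.31 to 25.6 CPM (median 13.7) in the other 11. These ranges overlapped, with CAC replicate 4 of the low libraries at 6.73 CPM and AM replicate 3 of the others at 5.31 CPM. Klhl14 had 0 counts in all 5 and 0.0425 to 2.03 CPM in each of the other 11. A count of 0 allows 0.0492 to 0.0685 CPM in the 5 libraries, scaled by library total alone and without the TMM factors. Between conditions neither was called, with Klhl6 means of 11.2 ± 4.42 CPM (NOR), 11.8 ± 9.74 (CAC), 12.9 ± 7.60 (AM) and 7.99 ± 7.58 (KD).

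**Figure D4:**
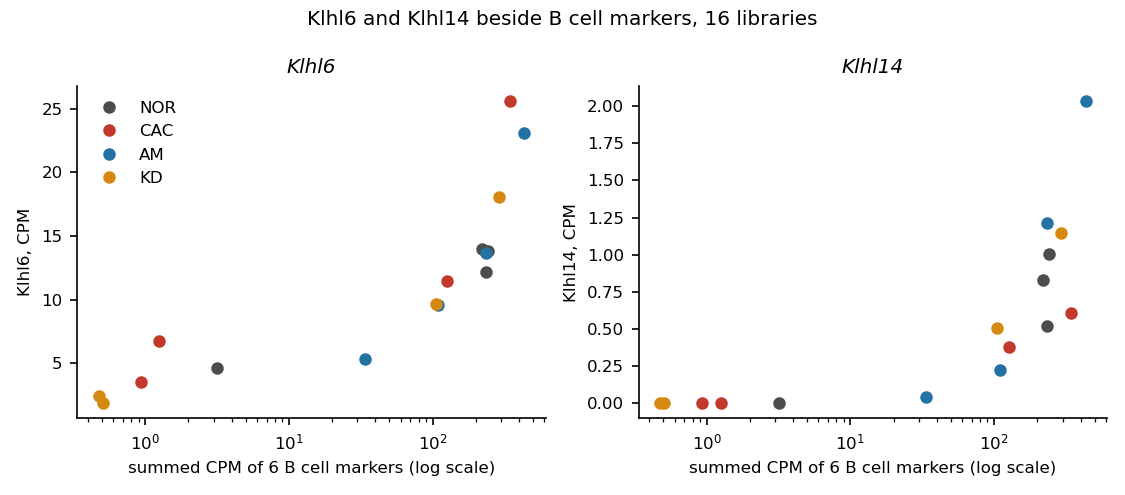
CPM of Klhl6 (left) and Klhl14 (right) against the summed CPM of 6 B cell markers (log axis) in 16 libraries, colored by group. The 5 libraries at the left, below 5 CPM of markers, have at most 6.73 CPM of Klhl6 and 0 counts of Klhl14.

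Around the family, the ligase itself was measured. By edgeR the counts of the lists that follow stand against 4.32% of all genes up and 5.13% down in CAC vs. NOR, 1.63% and 2.03% in AM vs. CAC, and 0% and 0.00685% in KD vs. CAC, and an unadjusted p below 0.05 against 29.1%, 21.7% and 11.1%. Their DESeq2 counts stand against 5.75% up and 7.41% down, 4.39% and 3.28%, and 1.70% and 0.737% in the same order of comparisons. Cul3 had a log2 fold change of 0.19 in CAC vs. NOR (edgeR FDR 0.200). Of 24 genes of the Cul3 ligase machinery (the scaffold, its ring subunit, the Nedd8 pathway and the COP9 signalosome), 0 rose or fell in CAC vs. NOR by edgeR (8 with an unadjusted p below 0.05, 1 down by DESeq2), and their median log2 fold change was 0.09 against 0.01 for all genes. In AM vs. CAC 1 fell, Cops5, the subunit of the signalosome that removes Nedd8 from cullins, from 120.1 ± 12.5 to 78.7 ± 7.62 CPM (log2 fold change -0.61, edgeR FDR 0.0208), and 0 rose (list median -0.16, all genes 0.01, 10 of 24 with an unadjusted p below 0.05). The signalosome subunits Cops3 (-0.50, edgeR FDR 0.0196) and Cops4 (-0.48, edgeR FDR 0.0228) were under the fold limit there. In KD vs. CAC 0 were called by edgeR or DESeq2, and 0 had an unadjusted p below 0.05. Of 18 Cul3 adaptors without kelch repeats, 0 were called by edgeR in the 3 comparisons (4, 5 and 2 with an unadjusted p below 0.05 for the CAC, AM and KD comparisons in turn, 0, 0 and 1 by DESeq2). Of 7 other cullins, 0 were called by edgeR or DESeq2 (3, 2 and 0 with an unadjusted p below 0.05 in the same order). Among these Cul1, the scaffold of the SCF ligases, had FDRs within the limit under a smaller fold (log2 fold change 0.47 in CAC vs. NOR, edgeR FDR 0.0168, and -0.48 in AM vs. CAC, edgeR FDR 0.0374). The medians of the adaptors and cullins in CAC vs. NOR were -0.19 and 0.18.

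Among 12 kelch relatives under other names, 0 rose and 1 fell in CAC vs. NOR (median -0.03, 5 with an unadjusted p below 0.05). By edgeR the comparisons of AM and KD with CAC called 0 (4 and 3 with an unadjusted p below 0.05, 1 and 1 by DESeq2). The fall was that of Kbtbd13, a muscle Cul3 adaptor mutated in nemaline myopathy. It had 49.7, 26.7, 26.3 and 23.0 CPM in NOR and 11.0, 14.8, 5.63 and 13.5 CPM in CAC, without overlap (log2 fold change -1.48, SE 0.345, edgeR FDR 0.0264). Keap1, the sensor of oxidative stress that controls Nrf2, had an FDR of 0.0275 with a log2 fold change of 0.43, under the fold limit.

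Of 20 partners and substrates of Klhl proteins, 3 rose and 2 fell in CAC vs. NOR (median 0.06, 8 with an unadjusted p below 0.05). Eif4ebp1, the translation inhibitor 4E-BP1 on which Klhl25 acts, had 66.5, 58.9, 55.8 and 84.5 CPM in NOR and 271, 247, 448 and 436 CPM in CAC (log2 fold change 2.40, SE 0.244, edgeR FDR 0.00214). Nrap, the thin filament scaffold bound by Klhl41, rose from 1479 ± 384 to 2980.5 ± 171 CPM (log2 fold change 1.01, edgeR FDR 0.0137). Flnc, the filamin on which Klhl31 acts, rose from 1058 ± 324 to 1954 ± 246 CPM (0.88, edgeR FDR 0.0450). Lmod3, the thin filament protein stabilized by Klhl40, fell from 164 ± 23.9 to 102 ± 15.9 CPM (-0.68, edgeR FDR 0.0185), and Irs1, an insulin receptor substrate, from 102 ± 33.6 to 41.4 ± 4.87 CPM (-1.30, edgeR FDR 0.00910). In AM vs. CAC 0 of the 20 rose and 3 fell, Eif4ebp1 (-2.08), Flnc (-1.17) and Nrap (-0.99), with edgeR FDRs of 0.00552 to 0.00937 (list median 0.03). An unadjusted p below 0.05 was reached by 5 of the 20 there. In KD vs. CAC 0 were called by edgeR and 3 by DESeq2, and 4 had an unadjusted p below 0.05.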

How the data were processed

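Poly(A) RNA of 16 gastrocnemius muscles was sequenced on a HiSeq2500, 1 library per mouse. The authors deposited whole-number counts per gene, not normalized, and FPKM values, which were checked to follow from these counts with 1 length per gene (6721 genes, spread of at most 0.186%). The submitters' processing notes name fastp, Bowtie2, HISAT2, StringTie 1.3.1 and the builds mm9 and GRCm38, with no roles, and strandedness is not given in the sources used here. Positions are from GENCODE M21 (GRCm38).

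Counts were compared between the 8 libraries of 2 groups with edgeR 4.0.16 in R 4.3.3 (TMM, filterByExpr with a minimum count of 10 and total of 15, quasi-likelihood F test, Benjamini-Hochberg over all genes tested). Calls used the study's limits, an FDR within 0.05 together with a 1.5-fold change or more. NOISeq, which the study used, was not used here. CPM values share 1 set of TMM factors over the 16 libraries.

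The members and lists were chosen with earlier results of these data known. Values of every mouse are given for Klhl31, Klhl38, Klhl40, Klhl41, called members and the 3 members with the highest mean FPKM, and of the lists those called are named (Cul1, Cul3, Cops3, Cops4 and Keap1 were added after their values were seen). Alternatives were DESeq2 1.42.0, limma-voom (limma 3.58.1), other scalings and filters, strain or replicate number as a covariate, all 16 libraries, each strain alone, and each mouse left out. The B cell marker level as a covariate and leaving out 5 libraries were chosen after the data were seen. Figures were drawn with matplotlib 3.10.9.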

Additional observations from a re-analysis of the deposited data

Results flagged for a closer look

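Of 136 groups of 4 mice (34 members in 4 groups), 9 held a mouse far from the other 3 by Dixon's limit, and chance alone gives about 1 in 20. In NOR replicate 1 these were Klhl23 (35.1 CPM, the others 20.8 to 22.4), Klhl7 (47.8, the others 37.0 to 38.7) and Klhl12 (23.6, the others 18.6 to 19.1). In NOR replicate 2 they were Klhl33 (98.6 CPM, the others 136 to 144) and Klhl11 (5.40, the others 4.00 to 4.07). Klhl15 stood out in CAC replicate 4 (4.25 CPM, the others 1.86 to 2.15). In the AM group Klhl10 stood out in replicate 1 (0.581 CPM, the others 0.139 to 0.149), Klhl3 in replicate 2 (8.02, the others 5.59 to 5.69) and Klhl30 in replicate 4 (135, the others 78.7 to 86.5). Without NOR replicate 1 the CAC vs. NOR log2 fold change of Klhl23 was -1.18 (edgeR FDR 0.0315), and without NOR replicate 2 that of Klhl33 was -1.26 (0.0404).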

How the results depend on the processing

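The counts called in CAC vs. NOR (2 up, 3 down) became 5 down with DESeq2 and with the strain as a covariate, and 6 down with the B cell marker level as a covariate. Of all genes, 5.13% were down in the reported fit, 7.41% with DESeq2, 5.71% with the strain and 6.85% with the B cell marker level, and 1.14% without the libraries low in B cell markers (1.48% up). They became 0 down without the libraries low in B cell markers, and 0 up and 0 down in C57BL/6 alone and in BALB/c alone, where 2 mice stood against 2. Of all genes, 0.856% rose and 0.835% fell in C57BL/6 alone, and 0% and 0% in BALB/c alone. With each mouse left out, 2 to 3 rose (Klhl2 the third, without NOR replicate 4) and 1 to 3 fell, 1 without NOR replicate 1 or 3. Of all genes, 2.32% to 4.01% rose and 2.60% to 4.89% fell in these fits. The share that fell was 3.36% without NOR replicate 1 and 2.60% without NOR replicate 3. Klhl38, Klhl3 and Klhl23 were called in all 8 of these fits. In AM vs. CAC, DESeq2 called 4 up. The 1 member down became 0 with all 16 libraries, in either strain alone and without the libraries low in B cell markers, and was 0 to 1 with each mouse left out. Of all genes, 0.657% fell with all 16 libraries, 0% in either strain alone and 0.0726% without the low libraries. With each mouse left out 1.01% to 1.80% of all genes fell, against 2.03% in the reported fit. In KD vs. CAC DESeq2 called 1 up, 1 down and 1 strain interaction, and the fit of all 16 libraries 1 down. That fit of all 16 libraries called 0.591% of all genes up and 0.361% down.

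With the replicate block CAC vs. NOR had 2 up and 3 down (Klhl31 in place of Klhl29) and AM vs. CAC 0 down. Of all genes, 3.63% rose and 4.14% fell with this block in CAC vs. NOR, and 0% and 0% in AM vs. CAC. Deviations of same-numbered mice correlated from -0.19 to 0.60 in CAC vs. NOR and, against CAC, from -0.45 to 0.05 in AM and -0.64 to -0.25 in KD, so the numbers did not pair the mice.

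Among values of named members in 22 settings, which include the reported fit, 531 kept their direction and their side of the limit. Under the alternatives 34 lost a call, 16 gained one and 13 turned sign. The CAC vs. NOR log2 fold change of Klhl21 was -0.0059 in limma-voom, -0.12 with the B cell covariate, -0.20 without the low libraries and -0.13 to 0.13 with mice left out. With mice left out, Klhl21 ranged from -0.069 to 0.29 in AM vs. CAC. For KD vs. CAC it ranged from -0.093 to 0.31, and Klhl41 from -0.27 to 0.00412. In C57BL/6 alone Klhl40 had 0.16 in CAC vs. NOR, and Klhl21 -0.19 and Klhl33 -0.26 in KD vs. CAC. In BALB/c alone Klhl41 had 0.025 in KD vs. CAC. DESeq2 called 1 kelch relative up in AM and 1 in KD against CAC, 1 gene of the Cul3 machinery down in CAC vs. NOR, 1 adaptor without kelch repeats up in KD vs. CAC, and 1 partner up and 2 down in KD vs. CAC. The cause of these changes was not tested.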

Other observations

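Fbxo32, the atrophy ubiquitin ligase also known as atrogin-1, lies 99641 bases from Klhl38 on chromosome 15 and was chosen after its values were seen. In KD replicates 1 to 4 it had 55.0, 619, 225 and 154 CPM, and Klhl38 had 24.9, 101, 86.8 and 34.3 CPM, in the same order of mice. In AM the order was shared too (315, 224, 220.2 and 200.5 CPM for Fbxo32, 55.6, 50.3, 47.8 and 38.3 CPM for Klhl38). In CAC and NOR it was not, with Fbxo32 at 1123, 770.4, 924 and 885 CPM in CAC and 222, 165, 93.1 and 140.4 CPM in NOR, and Klhl38 at 202, 106, 98.3 and 117 CPM and at 49.3, 20.8, 20.5 and 34.5 CPM. In CAC replicate 1, the mouse with the highest Klhl38 of all 16 (202 CPM), Fbxo32 was also at its highest (1123 CPM).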
